A study of Mus musculus with 15 samples.

Results

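The genes described here are 10 keratins that serve as markers of the basal and luminal cells of the mammary gland, Krt5, Krt14, Krt15, Krt17, Krt6a, Krt7, Krt8, Krt18, Krt19 and Krt23. They were chosen by name. Each is represented by the probe set annotated to its symbol alone that had the highest mean log2 intensity over the 15 arrays. They are 10 of 48 keratin genes, and of 18193 genes in all, with a probe set of their own. All 10 were among the 12143 genes bright enough to test, meaning above an array's median in at least 3 of the 15 arrays, and so were 11 other keratins. Of the 10, Krt5 exceeded the median in 10 arrays, Krt6a in 12, Krt15 in 13 and the other 7 in all 15.

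RNA came from 5 sorted populations of C57BL/6 females, with 3 arrays each. The basal population enriched for mammary stem cells (MaSC, Lin-CD24+CD29hi), the luminal progenitors (LP, Lin-CD24hiCD29+CD61+) and the mature luminal cells (ML, the CD61- counterpart) were wild type and were sorted from 3 common suspensions of glands of adult virgins. The other populations were taken by lineage exclusion and a YFP label from Wap-Cre;R26Y mice, with no gate on CD24, CD29 or CD61 named in the labels. They are the alveolar luminal cells (AL), from adults at midgestation, and the alveolar luminal stem/progenitor cells (ALP), from adult virgins. Cre is driven in these mice by the promoter of a milk protein gene, and R26Y lights up after Cre has acted, so YFP marks cells that had Cre or descend from cells that had it. How many animals gave the AL and ALP samples, and whether their replicates were separate animals, is not stated in the labels. The p-values here therefore cover the spread among the arrays at hand, which may be technical.

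Keratins form the intermediate filaments of epithelial cells. A type I keratin pairs with a type II keratin, and the pairs differ between cell types. KRT5 (type II) with KRT14 (type I) is the classical pair of basal and myoepithelial cells, KRT8 (type II) with KRT18 (type I) that of simple and luminal epithelium, and mammary cells of either layer are routinely told apart by staining for these proteins.

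By their RNA, the 10 keratins fell into unlike groups here. Krt5, Krt14, Krt15 and Krt17 were brightest in MaSC and lower in each other population. Krt8, Krt18 and Krt19 were close to the top of the scale in all 5 populations. Krt6a and Krt7 were brightest in ML and lowest in AL, and Krt23 was lowest in ML and bright in both MaSC and AL. An adjusted p under 0.05 in limma, with one variance per gene over all 15 arrays, is called a pass below, and log2 differences are given with their standard error (SE).

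Each population enters 4 of the 10 comparisons, which therefore share arrays and are not independent. Between MaSC and LP 9 of the 10 keratins passed, 6 higher and 3 lower in MaSC, where 38.9% of all genes passed (15.8% higher and 23.1% lower). Between MaSC and ML 9 passed, 5 higher and 4 lower in MaSC, against 59.5% of all genes (27.1% and 32.4%). LP and ML differed in 4 keratins, 2 higher and 2 lower in LP, and in 49.0% of all genes (27.3% and 21.7%), so that the count of 4 was near the background.

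AL differed from LP in 6 of the 10, 4 higher and 2 lower in AL, against 45.5% of all genes (21.3% higher and 24.2% lower). It differed from ML in 6, again 4 higher and 2 lower, against 53.5% (28.7% and 24.8%), which is near the background. Against MaSC 5 keratins were lower in AL and none higher, beside 59.4% of all genes (31.3% higher and 28.1% lower). Against ALP 1 was higher and 2 were lower in AL, beside 39.9% (18.7% and 21.2%).

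ALP was higher than LP in 3 keratins and lower in none, where 7.54% of all genes passed (3.58% higher and 3.95% lower). ALP was higher than ML in 4 and lower in 1, beside 36.7% (21.1% and 15.6%), and higher than MaSC in 1 and lower in 5, beside 38.4% (21.7% and 16.7%). The median log2 difference of the 10 was 1.41 for MaSC against LP and 1.495 for MaSC against ML, where the median of all genes was -0.07 in both. It was -1.21 for AL against MaSC, beside 0.05 for all genes.

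The balance of higher and lower calls over all genes depended on the scaling. With each array centred on its own median, the share of called genes that were higher moved from 45.6% to 29.1% in MaSC against ML, from 55.7% to 36% in LP against ML, from 53.7% to 40.7% in AL against ML and from 46.9% to 65.7% in AL against ALP. For ALP it moved from 47.5% to 34.4% against LP, from 57.5% to 22.6% against ML and from 56.6% to 45.6% against MaSC. With quantile normalisation it moved to 45.6% in LP against ML, 59.9% in AL against ALP, 37.2% in ALP against LP and 37.1% in ALP against ML.

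**Figure D1:**
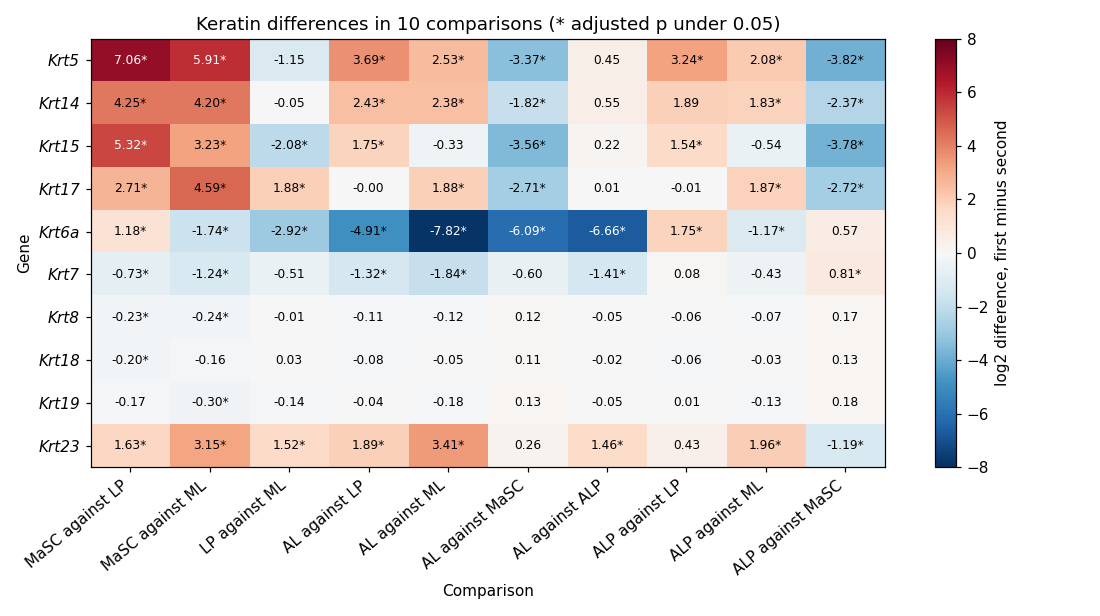
Log2 difference of each keratin (rows) in each of the 10 comparisons (columns), first population minus second, with red for higher and blue for lower in the population named first and an asterisk for an adjusted p under 0.05 in limma. Krt5 reaches 7.06 in MaSC against LP and Krt6a -7.82 in AL against ML, while no difference of Krt8, Krt18 or Krt19 exceeds 0.31 in size.

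Markers other than keratins checked the sorted populations. The summed intensity of 11 basal and myoepithelial markers without keratins (Acta2, Actg2, Cnn1, Lgr5, Myh11, Myl9, Mylk, Oxtr, Snai2, Tagln and Trp63) was 91030 to 97040 in MaSC, 2841 to 4918 in LP, 1170 to 1896 in ML and 23040 to 28060 in AL. In ALP it was 12280, 10070 and 44340, with replicate 3 far above the others. All 11 exceeded the array median in each MaSC array, 4 did so in each LP and in each ML array, 10 in each AL array and 7 in each ALP array. ALP replicate 3 also stood apart in the sums of 7 immune markers (28340, at most 2605 elsewhere) and 5 endothelial markers (10300, at most 2117 elsewhere), and its correlation with the other ALP arrays across genes was 0.901 and 0.916, where pairs within the other populations reached 0.943 to 0.989. The sums of 8 fibroblast markers were 35750 to 53010 in LP and 30320 to 42030 in AL. In ALP they were 47120 to 88360, highest in replicate 3, beside 1670 to 6143 in ML and 6373 to 8534 in MaSC. The sums of 7 alveolar milk genes were 82490 to 93430 in AL and at most 26770 elsewhere. For 7 luminal progenitor markers they were 40400 to 42810 in LP and 37210 to 40720 in ALP. In AL these gave 33560 to 34540, and in ML and MaSC at most 23270. For 9 luminal markers the sums were 55470 to 66820 in LP, ML, AL and ALP, and 26090 to 47470 in MaSC. No scan dates were at hand. ALP has the latest sample numbers, and a batch holding ALP alone cannot be told apart from the population.

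The sequence just before the start of transcription could be read for 5 of the 10 genes, from RefSeq on GRCm38.p6. It is shown so that genes whose level changed widely between populations (Krt5, Krt23) can be read beside those that varied less (Krt7, Krt8, Krt18). Each line gives the last 100 bases before the annotated start, 5′ to 3′ on the gene's strand. The letters ATAAA, part of a TATA box, are in capitals wherever they occur in the last 45 bases. Capitals mark letters only: other forms of a TATA box were not searched, and whether any match works as one was not tested.
Krt5, chr15:101712906-101713005, minus strand: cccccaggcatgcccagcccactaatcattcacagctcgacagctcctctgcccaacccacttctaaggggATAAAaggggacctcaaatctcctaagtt
Krt23, chr11:99493121-99493220, minus strand: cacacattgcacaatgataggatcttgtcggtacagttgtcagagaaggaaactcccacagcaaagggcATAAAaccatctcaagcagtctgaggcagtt
Krt7, chr15:101412303-101412402, plus strand: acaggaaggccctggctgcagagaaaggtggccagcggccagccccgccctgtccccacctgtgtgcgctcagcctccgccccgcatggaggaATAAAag
Krt8, chr15:102004343-102004442, minus strand: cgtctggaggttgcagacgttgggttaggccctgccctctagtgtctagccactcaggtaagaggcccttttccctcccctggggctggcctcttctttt
Krt18, chr15:102028116-102028215, plus strand: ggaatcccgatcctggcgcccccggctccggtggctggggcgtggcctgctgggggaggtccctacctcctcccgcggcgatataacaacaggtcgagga

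The letters ATAAA on the gene's strand began 29 bases before the start in Krt5, 31 in Krt23 and 7 in Krt7, and they occur in the same 45 bases of 6.08% of 32851 promoters in the table. They were not in this window of Krt8 or Krt18. The printed Krt18 line does hold the letters TATAA near its end, which were not searched in any gene. The letters GGGCGG, searched on both strands over 250 bases, occurred 4 times in Krt7 and in none of the other 4, and occur in 32.7% of all promoters. TGANTCA, the letters of an AP-1 site, occur in 6.75% of all promoters on either strand over 250 bases, and in none of the 5. Krt5, Krt7, Krt8 and Krt18 lie on chromosome 15 and Krt23 on chromosome 11.

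**Figure D2:**
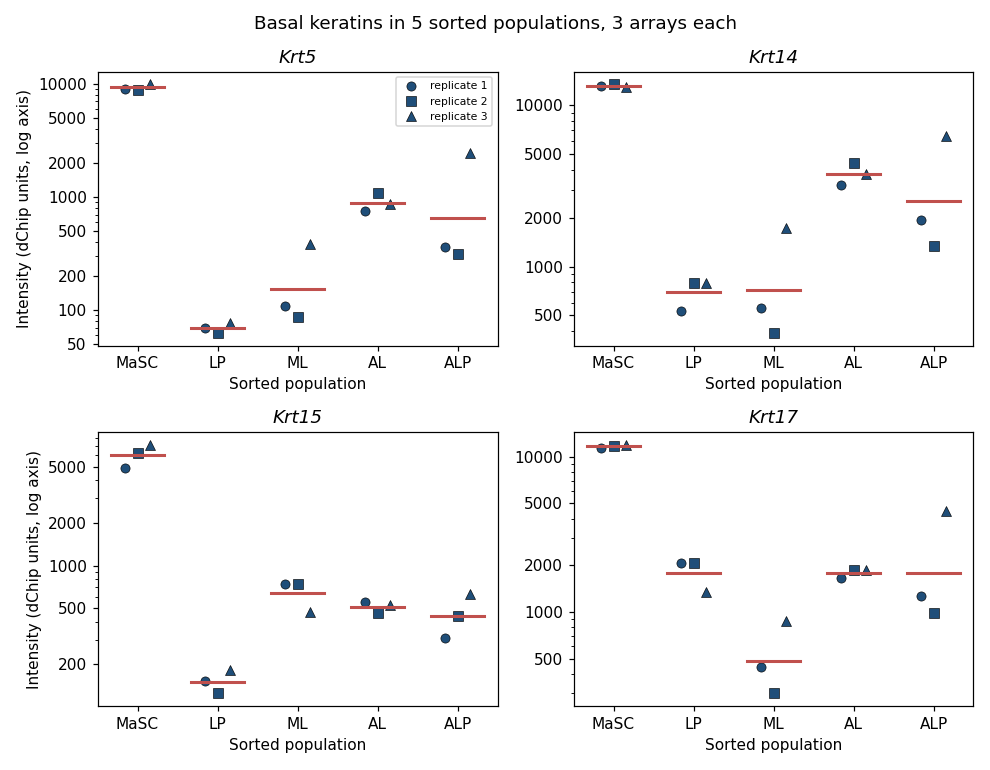
Intensity of Krt5, Krt14, Krt15 and Krt17 on each of the 15 arrays (points, with a shape per replicate number) on a log axis, by sorted population; red lines are means of the log values. The MaSC arrays lie above all others in each panel, and for Krt5, Krt14 and Krt17 replicate 3 of ML and of ALP lies above replicates 1 and 2.

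Krt5, the type II keratin of basal cells, gave intensities of 9061, 8894 and 9884 in MaSC and of 69.64, 62.76 and 76.74 in LP. In ML it gave 109, 87.96 and 384.2, in AL 749.5, 1093 and 872.8, and in ALP 363.9, 316.8 and 2441. The MaSC arrays were far above the rest, all LP arrays lay below their array's median, and the AL arrays overlapped neither LP nor ML. The difference between MaSC and LP was 7.06 (SE 0.69, adjusted p = 2.92e-05), a 133-fold ratio of measured values, and at least 57.1-fold when LP is set to the median of its arrays. MaSC was 60.0-fold above ML (adjusted p = 3.44e-05). Without ML replicate 3 the other ML arrays lay below their medians and MaSC was at least 67.7-fold above them (adjusted p = 2.99e-05).

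AL stood between these extremes for Krt5, 12.9-fold above LP (log2 3.69, SE 0.69, adjusted p = 0.00122; at least 5.51-fold above the LP array medians) and 10.4-fold below MaSC (adjusted p = 0.00133). It was 5.79-fold above ML (adjusted p = 0.00853), and without ML replicate 3 at least 6.53-fold (adjusted p = 0.00258). ALP was 9.43-fold above LP as measured (adjusted p = 0.0195) and at least 4.04-fold above the LP array medians. Without ALP replicate 3 that bound was at least 2.09-fold (adjusted p = 0.0254), and the call was lost without any one LP array (adjusted p = 0.0514 to 0.0705). ALP was 4.24-fold above ML (adjusted p = 0.0334), with overlapping arrays, and without ALP replicate 3 the ratio was 2.20 and no longer passed (adjusted p = 0.0754), nor did it without ML replicate 1 or 2 (adjusted p = 0.104 and 0.125). ALP lay 14.2-fold below MaSC (adjusted p = 0.00153), or 27.3-fold without that array (adjusted p = 3.53e-05). AL and ALP did not differ by the test (0.45, SE 0.69, adjusted p = 0.634), whereas without ALP replicate 3 AL was 2.63-fold higher (adjusted p = 0.0359). In order of log mean, Krt5 ran MaSC, AL, ALP, ML and LP, and neither the pair of AL and ALP nor the pair of ML and LP (adjusted p = 0.185) passed. For Krt5, LP against ML passed without ALP replicate 3 (-1.15, adjusted p = 0.0392), whereas without ML replicate 3 the difference was -0.495 (adjusted p = 0.571) with all remaining arrays of both populations below their medians.

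Krt14, the type I partner of KRT5, had intensities of 13200, 13480 and 13010 in MaSC. LP gave 534.6, 798 and 788.8, and ML 552.9, 388.2 and 1737. AL gave 3232, 4365 and 3731, and ALP 1954, 1342 and 6459. No array of another population came near MaSC, and all AL arrays were above all LP and ML arrays. MaSC exceeded LP 19.0-fold (4.25, SE 0.57, adjusted p = 0.000191) and ML 18.4-fold (adjusted p = 0.000102), the latter 28.5-fold without ML replicate 3. AL exceeded LP 5.39-fold (adjusted p = 0.00483) and ML 5.21-fold (adjusted p = 0.0041; 8.09-fold without ML replicate 3), and was 3.53-fold below MaSC (adjusted p = 0.0163).

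For Krt14, ALP against LP missed the threshold (3.69-fold, adjusted p = 0.067) although the arrays did not overlap, and it depended on single arrays. Without ALP replicate 3 the ratio was 2.33 (adjusted p = 0.191). Without ML replicate 3, which is in neither population but enters the variance, it passed (adjusted p = 0.0383). The comparison also passed with median centring (adjusted p = 0.0464) and with a trended, robust variance (adjusted p = 0.0457). The second Krt14 probe set passed in a fit by probe set (4.90-fold, adjusted p = 0.0454). ALP against ML passed at 3.57-fold (adjusted p = 0.026), and without ALP replicate 3 did not (2.25-fold, adjusted p = 0.0743), nor without ML replicate 1 or 2 (adjusted p = 0.0835 and 0.108). ALP was 5.15-fold below MaSC (adjusted p = 0.00756), or 8.17-fold without ALP replicate 3. LP and ML did not differ by the test (-0.05, SE 0.57, adjusted p = 0.95, 95% interval from -1.295 to 1.196), and AL and ALP did not either (1.46-fold, adjusted p = 0.476). For Krt14, AL was 2.31-fold above ALP without ALP replicate 3 (adjusted p = 0.067), and that difference passed with ML replicate 3 left out as well (1.21, adjusted p = 0.0028), a setting chosen after seeing the data. Krt14 had 3 probe sets of its own. The brighter ones put AL above LP 5.39-fold and 7.69-fold, and below MaSC 3.53-fold and 5.39-fold. The dimmest lay under the array median in all AL and LP arrays, which leaves no ratio between them, and put AL at least 10.5-fold below MaSC. The brightest is of a kind that can bind related transcripts, and a further probe set shared with Krt17 was left out.

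Krt15, a type I keratin of basal layers, was also brightest in MaSC, at 4883, 6222 and 7162, and was lowest in LP, at 151.5, 124.7 and 182.1. In ML it gave 739.4, 745.5 and 472.5, beside 548.2, 461 and 523.3 in AL and 305.5, 436.7 and 632.8 in ALP. All LP arrays were thus below the arrays of every other population, while ML, AL and ALP overlapped. MaSC was 39.9-fold above LP (5.32, SE 0.26, adjusted p = 7.27e-07) and 9.42-fold above ML (adjusted p = 2.64e-06). LP was 4.23-fold below ML (-2.08, adjusted p = 9.46e-05), a direction opposite to that of Krt17.

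Against LP, Krt15 was 3.38-fold higher in AL (adjusted p = 0.000297) and 2.91-fold higher in ALP (adjusted p = 0.00766). Against MaSC it was 11.8-fold lower in AL (adjusted p = 1.14e-06) and 13.7-fold lower in ALP (adjusted p = 8.92e-06). Among ML, AL and ALP no pair passed. The interval of AL minus ML ran from -0.90 to 0.25 and that of AL minus ALP from -0.36 to 0.79. Differences inside those bounds were thus not excluded with 3 arrays a population. ALP against ML, at -0.54, passed when ALP replicate 3 was left out (-0.81, adjusted p = 0.0237). It also passed with quantile normalisation (-0.80, adjusted p = 0.0154) and with median centring (-0.87, adjusted p = 0.00871), so the miss depended on the scaling.

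Krt17, a type I keratin of basal cells and of stressed epidermis, gave 11450, 11760 and 11980 in MaSC. LP gave 2065, 2060 and 1351, AL 1653, 1862 and 1864, and ALP 1275, 978.5 and 4501, and these populations overlapped. ML was lowest, at 441.5, 298.7 and 872.8, below all arrays of the others. MaSC exceeded LP 6.55-fold (2.71, SE 0.50, adjusted p = 0.00132) and ML 24.1-fold (adjusted p = 2.02e-05). LP exceeded ML 3.68-fold (adjusted p = 0.00846), AL exceeded ML 3.68-fold (adjusted p = 0.00722) and ALP exceeded ML 3.65-fold (adjusted p = 0.0123). The last was 2.30-fold without ALP replicate 3, and did not pass without ML replicate 2 (adjusted p = 0.0564) or with only the 6 arrays compared (adjusted p = 0.106). No difference between AL and LP was detectable for Krt17 (adjusted p = 0.999, interval from -1.08 to 1.08), whereas Krt5, Krt14 and Krt15 passed. AL was 6.55-fold below MaSC (adjusted p = 0.000637) and ALP 6.60-fold (adjusted p = 0.00163), or 10.5-fold without ALP replicate 3.

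The basal keratins in the luminal populations can be set beside the 11 other basal markers as percentages of the MaSC mean. In AL, Krt14 reached 28.5% on its brightest probe set, Krt17 15.3%, Krt5 9.75% and Krt15 8.39%. For Krt14, AL lay below MaSC 3.53-fold on that probe set, 5.39-fold on the second and at least 10.5-fold on the dimmest. The Krt14 percentages thus depended on the probe set. The 11 markers ran from 1.46% (Lgr5) to 61.8% (Oxtr, the oxytocin receptor of myoepithelial cells) in AL, with a median of 15.7%. Against LP, 9 of the 11 were higher in AL and none lower, and against ML also 9, beside 21.3% and 28.7% of all genes higher in AL. The 2 that did not pass against LP were Trp63 (7.22% of MaSC in AL and 7.25% in LP) and Lgr5. In ALP replicate 3 Krt14 stood at 48.8%, Krt17 at 38.4%, Krt5 at 26.3% and Krt15 at 10.4%. The markers there ran from 12% to 73.1% with a median of 30.6%, so Krt15 lay below all of them. The second Krt14 probe set gave 4029 on that array, beside a MaSC mean of 11580. ALP replicates 1 and 2 had marker medians of 4.29% and 6.09%. Krt5 lay below these medians, at 3.92% and 3.41%. Krt14 (14.8% and 10.1%), Krt17 (10.9% and 8.34%) and Krt15 (5.02% and 7.17%) lay above them. In LP the markers ran from 0.322% to 13.1% (Tagln), with a median of 2.08%, while Krt17 stood at 15.6%. In ML they ran from 0.0918% to 4.57% (Trp63), with a median of 1.26%, while Krt15 stood at 10.7%. Whether basal cells within the sorts gave part of the keratin signal was not tested. In sorted bulk samples, fewer cells of a type and less RNA per cell cannot be told apart.

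**Figure D3:**
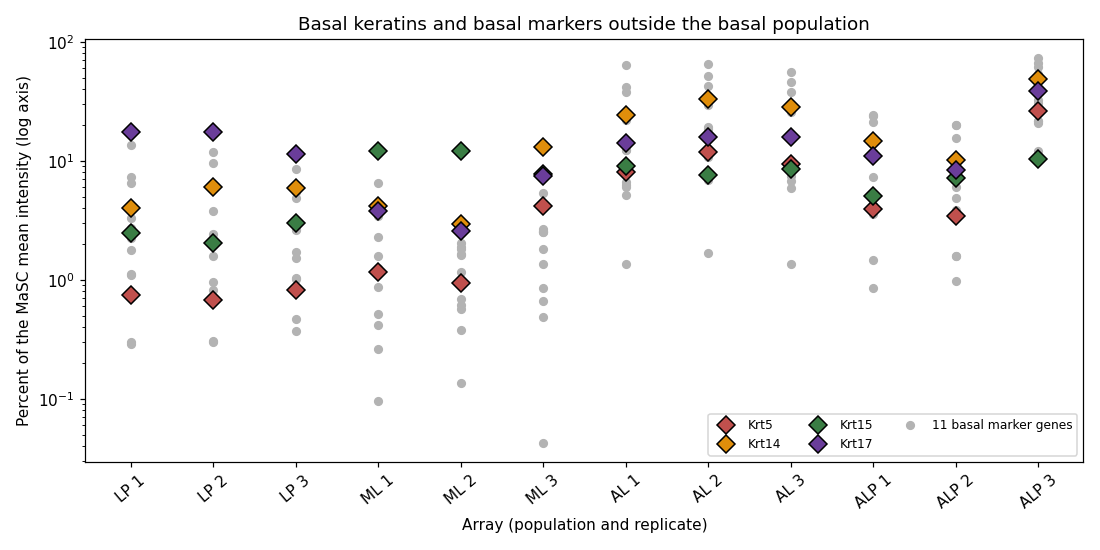
Krt5, Krt14, Krt15 and Krt17 (coloured diamonds) and 11 basal markers that are no keratins (grey points) on each LP, ML, AL and ALP array, as a percentage of the gene's mean intensity in MaSC, on a log axis. Krt14 is shown by its brightest probe set only. In AL the keratins lie within the range of the markers. Krt17 is at 11.5% to 17.6% in LP, where the marker Tagln is at 8.55% to 17.3%. Krt15 is at 7.76% to 12.2% in ML, and ALP 3 is above ALP 1 and ALP 2.

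Krt8 and Krt18, the pair of simple epithelium, and Krt19, a small type I keratin of luminal cells, were bright in all arrays. Krt8 gave 14250, 12950 and 13370 in MaSC, with means of 15840 in LP (SD 603, n = 3), 15980 in ML (SD 103), 14670 in AL (SD 528) and 15170 in ALP (SD 507). Krt18 gave 16300, 15710 and 14290 in MaSC and means of 17660 in LP (SD 249), 17250 in ML (SD 328), 16670 in AL (SD 445) and 16910 in ALP (SD 87.5). Krt19 gave 15580, 14160 and 11240 in MaSC and means of 15190 in LP (SD 221), 16730 in ML (SD 189), 14780 in AL (SD 598) and 15320 in ALP (SD 557). The means of MaSC were thus near those of the luminal populations for all 3 genes. These values lay in the top 1% of each array, whose maxima were 20549 to 22252, and whether the scale compresses differences there was not tested.

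Small differences passed all the same. Krt8 was 1.17-fold lower in MaSC than in LP (-0.23, SE 0.07, adjusted p = 0.0175) and 1.18-fold lower than in ML (adjusted p = 0.00819), with no overlap of arrays in either. Krt18 was 1.15-fold lower in MaSC than in LP (adjusted p = 0.0332), and against ML it missed the threshold (-0.16, adjusted p = 0.0501). Krt19 was 1.24-fold lower in MaSC than in ML (adjusted p = 0.0218). No other comparison of these 3 genes passed in the main fit. The intervals of AL minus LP were -0.26 to 0.04 for Krt8, -0.23 to 0.06 for Krt18 and -0.26 to 0.18 for Krt19. With a trended, robust variance in limma Krt8 passed as lower in AL than in LP (adjusted p = 0.0372) and in ML (0.0186). In that fit Krt8 and Krt18 passed as higher than MaSC in AL (0.0208 and 0.0211) and in ALP (0.00557 and 0.0143). Krt18 was also lower in MaSC than in ML there (0.00246). Krt19 was lower in AL than in ML with median centring (0.0388). The calls that set MaSC below LP or ML did not hold in every fit: with only the 6 arrays of a comparison the adjusted p was 0.0915 for Krt8 and 0.141 for Krt18 against LP, and 0.0696 for Krt8 and 0.122 for Krt19 against ML. Scaling also mattered: Krt18 against LP did not pass with quantile normalisation (adjusted p = 0.0664) or median centring (adjusted p = 0.116), nor Krt8 against LP with centring (adjusted p = 0.0937), whereas with centring all 3 genes were lower in ALP than in ML (adjusted p = 0.0144 for Krt8, 0.0196 for Krt18 and 0.00708 for Krt19). Single arrays mattered too. Krt8 against LP did not pass without MaSC replicate 2 or LP replicate 2 (adjusted p = 0.0614 and 0.0732), Krt18 against LP without MaSC replicate 2 or 3 or any one LP array (0.0526 to 0.103), and Krt19 against ML without MaSC replicate 3 or ML replicate 1 or 2 (0.0512 to 0.0644). Without MaSC replicate 1, MaSC passed as lower than ML for Krt18 (adjusted p = 0.0286), lower than LP for Krt19 (0.0461) and lower than ALP for Krt8 (0.0413) and Krt19 (0.0379). All 3 Krt8 probe sets lay 1.17-fold to 1.20-fold lower in MaSC than in LP.

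**Figure D4:**
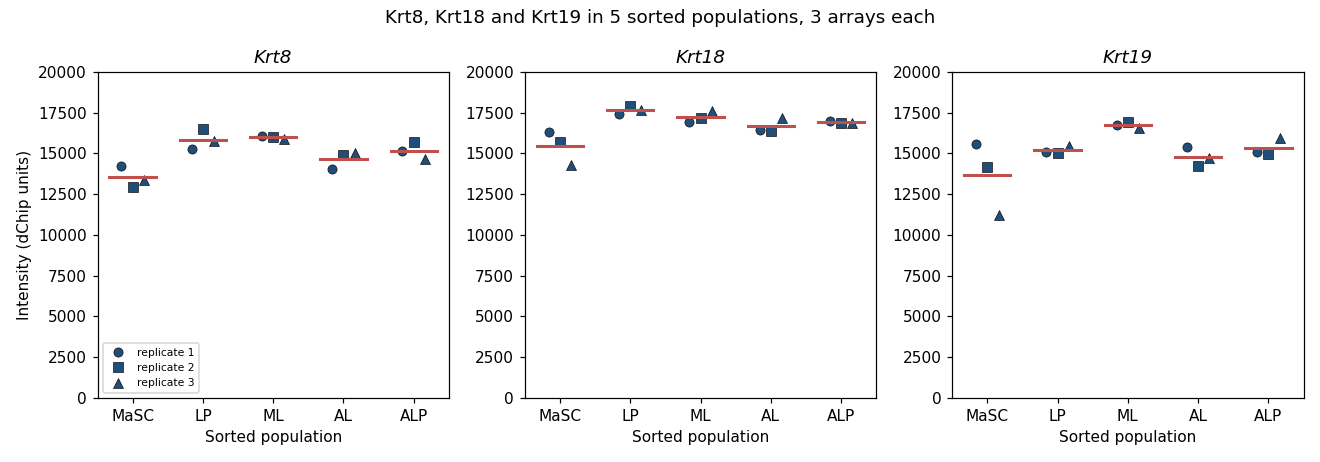
Intensity of Krt8, Krt18 and Krt19 on each array (points, with a shape per replicate number) on a linear axis from 0, by sorted population; red lines are means. All values lie between 11240 and 17910, and the lowest mean of each gene is that of MaSC.

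Krt7, a type II keratin of simple and glandular epithelium, varied more. It gave 6817, 4775 and 2868 in MaSC. LP gave 6723, 8049 and 7835, and ML 10490, 11070 and 10600. AL gave 2546, 2923 and 3621, and ALP 7469, 9054 and 7394. All ML arrays were above all others and the AL arrays overlapped only with MaSC, whose replicates were widely spread. The level in LP was 2.51 times that in AL (SE 0.25 on the log2 scale, adjusted p = 0.00119). The level in ML was 3.57 times that in AL (adjusted p = 7.56e-05) and the level in ALP 2.65 times (adjusted p = 0.001), while AL against MaSC missed the threshold (-0.60, adjusted p = 0.0539). AL passed as lower than MaSC without MaSC replicate 3 (-0.93, 1.90-fold, adjusted p = 0.00134), without AL replicate 3 (adjusted p = 0.043) and with a trended, robust variance (adjusted p = 0.0343). MaSC was 2.36-fold below ML (adjusted p = 0.00122). ALP exceeded MaSC 1.75-fold (adjusted p = 0.0235), and that call was lost without MaSC replicate 3 (adjusted p = 0.0677) and without ALP replicate 2 (adjusted p = 0.0802).

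MaSC against LP passed for Krt7 (1.66-fold lower, adjusted p = 0.0347) but with overlapping arrays, and it was lost without MaSC replicate 3 (-0.40, adjusted p = 0.109), without MaSC replicate 2 (adjusted p = 0.0627) and without any one LP array (adjusted p = 0.0503 to 0.0969). The 3 MaSC arrays also differed in 9 luminal markers without keratins, whose sums were 47470, 34680 and 26090, and in 6 markers of hormone-sensing mature luminal cells, with 20630, 14830 and 6438. The arrays highest and lowest in these sums were the highest and lowest for Krt7, Krt18 and Krt19, while the lowest for Krt8 was replicate 2 (12950, beside 13370 in replicate 3). Whether luminal cells in the basal sort gave part of these levels was not tested. LP against ML missed the threshold for Krt7 (-0.51, SE 0.25, adjusted p = 0.104), without overlap. That difference passed with only the 6 arrays compared (adjusted p = 0.00611), with median centring (adjusted p = 0.0366), and without MaSC replicate 1 or 3 (adjusted p = 0.0387 and 0.0198), arrays that enter this comparison only through the variance.

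Krt23, a type I keratin found in glandular epithelia, was lowest in the population where Krt7 was highest. AL gave 2798, 1803 and 2923 and MaSC 1485, 1500 and 3843, which overlapped. ALP gave 760.9, 891.3 and 1055, LP 772.2, 565.8 and 662.9, and ML 202.6, 198.6 and 302.9, with all ML arrays below the others. AL was 3.71-fold above LP (1.89, SE 0.34, adjusted p = 0.00097), 10.7-fold above ML (3.41, adjusted p = 8.17e-06) and 2.74-fold above ALP (adjusted p = 0.00559). LP was in turn 2.88-fold above ML (adjusted p = 0.00338), and ALP 3.89-fold above ML (adjusted p = 0.00107).

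MaSC was 3.09-fold above LP (adjusted p = 0.00292) and 8.89-fold above ML (adjusted p = 2.03e-05) for Krt23. Of the 10 keratins, Krt23 alone was higher in AL than in ALP by the test, and ALP was 2.29-fold below MaSC (adjusted p = 0.0172). No difference was detectable between AL and MaSC (0.26, SE 0.34, interval from -0.482 to 1.005) or between ALP and LP (1.35-fold, log2 interval from -0.309 to 1.178) with all arrays. Without MaSC replicate 3, AL was 1.64-fold above MaSC (0.72, adjusted p = 0.0305).

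**Figure D5:**
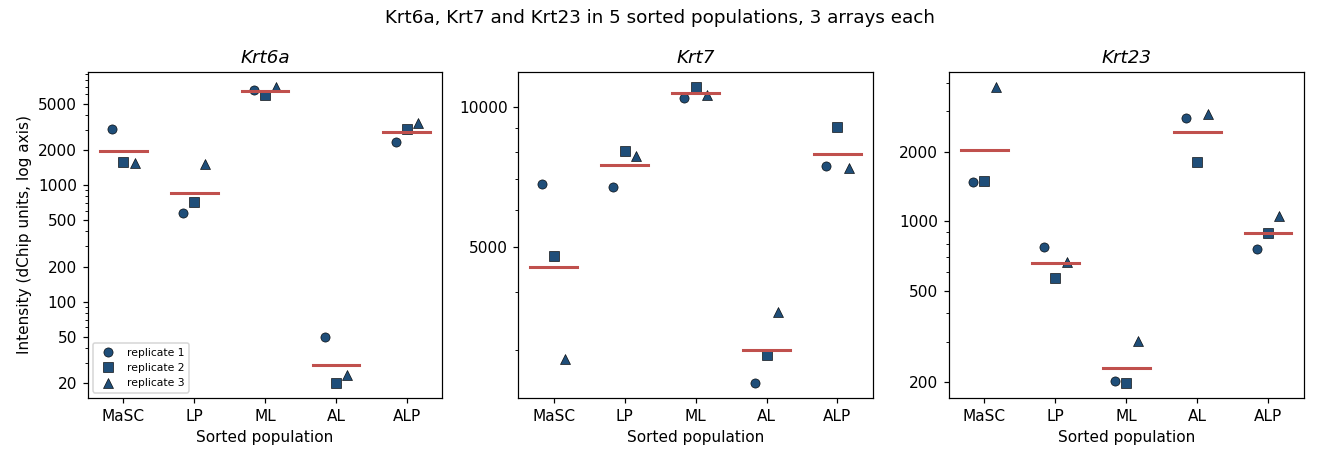
Intensity of Krt6a, Krt7 and Krt23 on each array (points, with a shape per replicate number) on a log axis, by sorted population; red lines are means of the log values. AL is lowest for Krt6a, at 20 to 49.88, and ML is highest for Krt6a and Krt7 and lowest for Krt23.

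Krt6a, a type II keratin known from activated epidermis, hair follicles and glandular ducts, gave 6589, 5887 and 6992 in ML, and ALP gave 2345, 3008 and 3395, MaSC 3009, 1570 and 1554 and LP 575.3, 719.5 and 1519. AL gave 49.88, 20 and 23.36, below the median of each AL array (147.5 to 158.5). All ML arrays were above all others and all AL arrays below all others, and ALP overlapped with MaSC only. The log2 difference of AL minus ML was -7.82 (SE 0.41, adjusted p = 1.17e-07), a 227-fold ratio of measured values and at least 42.8-fold with AL at the median of its arrays. The same bounds were at least 19.0-fold against ALP (adjusted p = 9.69e-07), 12.8-fold against MaSC (adjusted p = 6.1e-07) and 5.66-fold against LP (adjusted p = 5.15e-06). With 16 added to every intensity AL was 143-fold below ML and 19.3-fold below LP.

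The virgin populations also differed in Krt6a. LP was 7.56-fold below ML (-2.92, SE 0.41, adjusted p = 0.000174) and MaSC 3.33-fold below ML (adjusted p = 0.00327). MaSC was 2.27-fold above LP (adjusted p = 0.037), a call lost without MaSC replicate 1 (adjusted p = 0.129), without LP replicate 1 or 2 (adjusted p = 0.141 and 0.112) and in the fit with the replicate number as a block (adjusted p = 0.0516). ALP was 3.37-fold above LP (adjusted p = 0.0272), which did not pass without LP replicate 1 or 2 or ALP replicate 2 or 3 (adjusted p = 0.0725 to 0.101). ALP was 2.25-fold below ML (adjusted p = 0.0414), which did not pass with the block (adjusted p = 0.0567) or without any one ML array, ALP replicate 1 or 2, LP replicate 2 or AL replicate 3 (adjusted p = 0.0514 to 0.127). ALP and MaSC did not differ by the test (0.57, interval from -0.32 to 1.46). The 3 Krt6a probe sets put AL at least 27.6-fold, 32.4-fold and 42.8-fold below ML. Krt6b, a near-identical gene, never exceeded the array median with its own probe set, and its part in the Krt6a signal was not tested. Of 9 markers of skin keratinocytes 4 were bright enough to test. In all ML arrays 3 of the 9 exceeded the array median, and in all AL arrays 2 did. Dsc1, Flg and Krt2 were never above the median of any array. The sum of the 9 markers was 6722 to 8749 in ML and 11370 to 11980 in AL.

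Many of the ALP calls depended on the variance estimated with the other populations. With only the 6 ALP and LP arrays in limma no keratin passed, 4 of the 10 had an unadjusted p under 0.05, and 4 of all 12143 genes passed. With only the arrays compared 3 keratins passed for ALP against ML and 3 for ALP against MaSC.

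Likeness to other genes was measured as the root mean square difference between log2 profiles over the 15 arrays, each gene centred on its own mean, among 12142 genes. The profiles nearest to Krt5 were those of Col17a1 (0.68), which encodes a hemidesmosome collagen, Hmcn1 (0.68) and Bmp7 (0.76), where the standard deviation of Krt5 itself over the arrays was 2.63. Krt14 lay nearest to Tox (0.41), Id4 (0.48) and Serpinb6b (0.55), Krt15 to Sh3tc2 (0.46), Cyp2s1 and Ptpn14, and Krt17 to Gpr161 (0.37), Sfrp1 and Fst. Krt6a was nearest to Kif5c (0.44), Fam25c and Fgb, Krt7 to Sowahc (0.14), Snx13 and Cdk19, and Krt23 to Tcf7l1 (0.36), Rec114 and Cachd1. The nearest to the bright keratins were Nckap1, Ppp2r1a and Krt18 for Krt8, Rab11b, Rps18 and Actb for Krt18, and Dynlt3, Rabgap1 and Atp6v1g1 for Krt19. Krt8 and Krt18 differed by 0.05 and Krt5 and Krt14 by 0.93, and Krt5 and Krt6a, both type II, by 3.92. This measure is in log2 units, so genes that vary little lie close to each other whatever their pattern. The standard deviation over the arrays was 0.1 for Krt8 and 0.081 for Krt18, beside 1.767 for Krt14 and 2.847 for Krt6a. All profiles share the same arrays and scaling, and these values are descriptions.

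The other keratins followed a list of 22 type II and 22 type I genes, of which 18 and 19 had a probe set of their own and 8 and 3 were bright enough to test. Among the type I genes, Krt42 gave 3437, 3525 and 4223 in MaSC and at most 395.1 elsewhere, so that MaSC exceeded LP by 3.63 log2 units (SE 0.20, adjusted p = 8.04e-07) and ML by 4.44 (adjusted p = 9.05e-08). Krt16, a type I relative of Krt17, had means of 4293 in MaSC and 3745 in LP against 1482 in ML, 1282 in AL and 1342 in ALP. LP exceeded ML 2.63-fold (adjusted p = 0.00869), AL 2.99-fold (adjusted p = 0.00475) and ALP 2.94-fold (adjusted p = 0.0294) for Krt16. Krt16 and Krt42 are close in sequence to Krt14 and Krt17, and binding of one gene's transcripts by another's probes was not tested.

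Of the 8 other type II keratins, 4 were lower and 1 was higher in LP than in ML, and 4 were lower and none higher in AL than in ML. Of all genes 21.7% were lower and 27.3% higher in LP than in ML, and 24.8% lower and 28.7% higher in AL than in ML. Krt78 gave 1137, 1259 and 1018 in ML and a mean of 123 in AL, below the median of each AL array, so that AL was lower by at least 7.49-fold (-3.20 as measured, SE 0.36, adjusted p = 1.82e-05). It was also 5.06-fold lower in LP (adjusted p = 0.000304) and 5.65-fold lower in MaSC (adjusted p = 0.000141) than in ML, as Krt6a was. Krt79 in AL lay at least 3.47-fold under ML (adjusted p = 0.00165), and Krt4 at least 4.56-fold (adjusted p = 0.00281). Krt80 ran the other way, with LP 1.92-fold over ML (adjusted p = 0.00391). Krt73 had a mean of 207 in MaSC and was below the median in each array of the other populations, at least 1.26-fold lower in LP (adjusted p = 0.000678).

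Of 16 other intermediate filament genes 7 were tested. Between LP and ML 3 were higher and 3 lower in LP, beside 27.3% and 21.7% of all genes. Vim, the vimentin of mesenchymal and basal cells, had means of 12800 in MaSC, 9438 in LP, 7195 in AL and 12230 in ALP against 391 in ML, so that LP exceeded ML 25.6-fold (4.68, SE 0.28, adjusted p = 8.11e-07). For Nes, which encodes nestin, LP exceeded ML at least 3.69-fold (adjusted p = 1.97e-06), and AL lay 3.75-fold under LP (adjusted p = 0.000106). Synm, which encodes synemin, was at least 7.20-fold higher in MaSC than in LP (adjusted p = 7.33e-05). The summed intensity of 8 fibroblast markers was also higher in LP, AL and ALP than in ML, but not high in MaSC: it was 35750 to 53010 in LP, 30320 to 42030 in AL and 47120 to 88360 in ALP, beside 1670 to 6143 in ML and 6373 to 8534 in MaSC. Their part in the Vim levels was not tested.

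Transcripts of the proteins that tie keratins to junctions were more often lower than higher in AL. Of 20 linker and partner genes, all tested, 12 were lower and 1 was higher in AL than in LP, with a median of -0.52 beside -0.03 for all genes. Against ML 13 were lower and none higher, against MaSC 11 lower and 3 higher, and against ALP 7 lower and none higher. Of all genes, 24.2% were lower and 21.3% higher in AL than in LP, 24.8% and 28.7% than in ML, 28.1% and 31.3% than in MaSC, and 21.2% and 18.7% than in ALP. Dsp, which encodes the desmosomal linker desmoplakin, gave 2285, 2503 and 2993 in AL against means of 9310 to 10820 in the other populations, and was 3.66-fold lower in AL than in LP (-1.87, SE 0.11, adjusted p = 4.92e-07) and 3.60-fold lower than in ALP (adjusted p = 9.02e-07). Plec, the keratin crosslinker plectin, was 2.18-fold lower in AL than in LP (adjusted p = 2.14e-06), and Pkp1, the desmosomal plakophilin 1, 2.69-fold lower (adjusted p = 4.43e-05). With each array centred on its own median 10 were lower and 1 was higher in AL than in LP, and 5 were lower and 1 was higher in AL than in ALP.

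Among the same genes, Col17a1 marked the basal population, with a mean of 5410 in MaSC, at least 33.2-fold above LP (adjusted p = 2.12e-05) and at least 39.2-fold above ML (adjusted p = 2.12e-05). Pkp2 was 5.29-fold lower in MaSC than in LP (-2.40, SE 0.40, adjusted p = 0.00068). Evpl, the cornified envelope protein envoplakin, was highest in ML, 3.88-fold above LP (adjusted p = 0.000772) and 4.06-fold above AL (adjusted p = 0.000421).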

How the data were processed

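RNA of 5 sorted populations was amplified and hybridised to Affymetrix Mouse Genome 430 2.0 arrays, 3 per population. The deposited values are linear intensities, normalised by the authors with dChip, for each probe set on each array. Its version, model and baseline were not stated in the paper, the labels or the file, and there are no detection calls. Of 45101 probe sets, 34945 had exactly 1 gene symbol, and those with several (932) or none were left out, as were 64 controls. Intensities below 1 were set to 1 before log2. A gene was tested on its brightest probe set if above the array median in at least 3 of 15 arrays (12143 genes). One mean per population was fitted to all 15 arrays with limma 3.58.1 in R 4.3.3 (lmFit and eBayes), two-sided, with Benjamini-Hochberg adjustment over all genes within each of 10 comparisons and a threshold of 0.05. The code was tested on simulated data. A population with all 3 arrays under the array median has only a bound, given as "at least" against those medians.

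The keratins and the gene lists were chosen with earlier results of these data known. Named were all 10 keratins, the 3 nearest profiles of each, and up to 3 genes per list and comparison with the largest moderated t statistics among those that passed; comparisons given for a gene beyond those that named it, and the marker genes named, were chosen after their values were seen. Whether replicate numbers pair samples was checked from deviations of same-numbered arrays (r from -0.011 to 0.173) beside those with different numbers (r from -0.125 to 0.079). The ranges overlapped, which did not settle the pairing. The labels do not tie numbers to suspensions, so no block was used in the main fit. Alternatives were other scalings, filters, floors, probe set rules, variance settings, single arrays left out, a replicate block and fits of only the arrays compared. Array counts limit the precision.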

Additional observations from a re-analysis of the deposited data

How the results depend on the processing

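The alternatives other than leaving out a single array included the fit without both ALP replicate 3 and ML replicate 3. In them, 933 values kept their direction and side of the threshold, 28 lost and 28 gained a call and 11 changed sign. With single arrays left out these were 1424, 41, 15 and 20. None of the sign changes touched a called difference, and the causes were not tested. Keratins passing numbered 10 for ALP against ML with arrays centred on their medians (5 as reported). With only the 6 arrays compared they numbered 5 for MaSC against LP (9 as reported), 0 for ALP against LP (3), 3 for ALP against ML (5) and 3 for ALP against MaSC (6). A trended, robust variance gave 8 for AL against MaSC (5), and leaving out ALP replicate 3 and ML replicate 3 together, chosen after seeing the data, gave 6 for AL against ALP (3). With 1 array left out the counts were 5 to 9 for MaSC against LP, 8 to 10 for MaSC against ML, 4 to 5 for LP against ML, 6 to 6 for AL against LP, 6 to 7 for AL against ML, 5 to 7 for AL against MaSC, 3 to 4 for AL against ALP, 1 to 4 for ALP against LP, 1 to 6 for ALP against ML and 5 to 8 for ALP against MaSC.

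Log2 differences that changed sign were Krt17 in AL against LP (0.03 with quantile normalisation, 0.015 with median centring). With median centring they were also Krt18 in LP against ML (-0.132), Krt8 (0.134), Krt18 (0.161) and Krt19 (0.131) in AL against ALP, and Krt7 (-0.087) and Krt19 (-0.155) in ALP against LP. Krt14 in LP against ML was 0.02 over the mean of all probe sets and 0.586 without ALP replicate 3 and ML replicate 3, where Krt19 in ALP against LP was -0.018. With 1 array left out, the ranges were -0.495 to 0.586 for Krt14 and -0.042 to 0.012 for Krt8 in LP against ML, -0.204 to 0.102 for Krt17 in AL against LP, -0.008 to 0.228 for Krt19 in AL against MaSC, -0.076 to 1.397 for Krt5, -0.045 to 0.48 for Krt15 and -0.42 to 0.681 for Krt17 in AL against ALP, and -0.681 to 0.42 for Krt17, -0.016 to 0.13 for Krt7 and -0.018 to 0.03 for Krt19 in ALP against LP.

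The replicate block left 7 keratins passing for MaSC against LP. It lost Krt6a (adjusted p = 0.0516) and Krt18 (adjusted p = 0.0561) there and Krt6a in ALP against ML (adjusted p = 0.0567) in limma. Median centring moved the median of all genes by -0.33 in ALP against ML and the share of called genes that were higher from 57.5% to 22.6%. Intensity near background limits Krt5 in LP and Krt6a in AL to bounds.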
